A study of Oryza sativa with 4 samples.

Results

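The 34 genes described here are rice genes of auxin or brassinosteroid signalling that lie near a region enriched in immunoprecipitation of OsMADS2, out of 2589 genes that the authors placed near such regions. OsMADS2 belongs to the MADS-domain regulators of floral organs and is related to PISTILLATA of Arabidopsis. The 34 were drawn from the authors' gene ontology lists for auxin mediated signaling pathway (27 genes) and brassinosteroid mediated signaling (23 genes), which share 6 genes and hold 44 in all. Of these, 10 were left out, 9 because they also stand under inflorescence or flower development and 1, OsWRKY53, by name. That left 17 genes of the auxin term alone, 13 of the brassinosteroid term alone and 4 of both. Each was listed because a peak was called near it in all 3 peak lists, so its presence and its fold come from the choice and are given as a description, with no test.

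Auxin is perceived by F-box proteins of the TIR1/AFB family, which bind Aux/IAA repressors and send them to degradation. The repressors hold auxin response factors (ARFs), DNA-binding proteins that set the expression of auxin-responsive genes. Brassinosteroids are steroid hormones that bind the receptor kinase BRI1. Their signal turns off GSK3-like kinases, which otherwise hold transcription factors of the BZR family inactive. Both hormones are known for their part in panicle branching, floral organ growth and grain size.

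Formaldehyde-fixed, MNase-cut chromatin came from wild-type TP309 panicles of 0.3 to 2 cm and was taken through 2 immunoprecipitations with anti-OsMADS2 antibody (IP5 and IP6) and 2 mock immunoprecipitations with rabbit IgG (mock 5 and mock 6). All 4 libraries carry the same genotype, with no OsMADS2 mutant among them, and per the file headers 5 and 6 are biological replicates. Uniquely mapped reads numbered 9142837 in IP5 and 15934402 in IP6, against 13248694 in mock 5 and 16742118 in mock 6. A panicle of this size holds many cell types, and the data do not show in which of them a region was occupied.

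The values are the fold enrichments of the authors' peak caller, from 3 lists. IP5 was set against mock 5 in the first list and against mock 6 in the second, and IP6 against mock 6 in the third; triplets of folds below keep that order. A gene's fold in a list is that of its strongest peak in any region assigned to it. A region here is a set of overlapping peaks from all 3 lists that the authors merged and assigned to genes up to 3999 bp away. IP5/mock 5 and the like name the list behind a fold. Every fold belongs to 1 library pair and has no replicate error. Only IP5 over mock 5 and IP6 over mock 6 share no library. Coordinates are as deposited, on a build not given in the sources used here.

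In hormone perception and transport, regions lay at the 5′ ends of a receptor gene and a carrier gene. OsAFB2, an auxin receptor F-box gene, had a region across its start (chromosome 4, 19457476 to 19458661, gene on the minus strand) with folds of 3.19 (IP5/mock 5), 5.02 (IP5/mock 6) and 3.04 (IP6/mock 6). OsAUX1, which encodes an auxin influx carrier, had a region just inside its start (chromosome 1, 36998353 to 36999613, plus strand) with folds of 2.36, 2.13 and 2.81 in the same order of lists. Only the IP5 over mock 6 peak spanned that region. The peaks of IP5 over mock 5 (36999112 to 36999393) and IP6 over mock 6 (36999249 to 36999390) lay farther into the gene. The OsAUX1 value of 2.13 was the lowest of any of the 34 genes in IP5 over mock 6. OsAFB2 stood above a fold of 3 in all 3 lists and OsAUX1 below it in all 3.

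The Aux/IAA repressors were the largest family, with 7 genes and 8 regions, and 6 of the 7 had a region touching the gene near its start. Among the 34 genes 24 (70.6%) had a region touching the gene, against 47.3% of the 2589 genes. Median region width was 682 bp over their 38 regions and 553 bp over all 1442, and median gene length 3126 bp and 2655 bp; the part of width and length in the contact was not tested. Regions crossed the starts of OsIAA3 (Os01g0231000), OsIAA10 and OsIAA24. They lay inside OsIAA13, OsIAA17 and OsIAA30, with midpoints 258, 304 and 481 bp past the start. OsIAA13 (chromosome 3, 30482794 to 30483267, minus strand) had folds of 5.54 (IP5/mock 5), 3.17 (IP5/mock 6) and 2.96 (IP6/mock 6). OsIAA17 (chromosome 5, 7950947 to 7951491, plus strand) had 4.02, 4.06 and 3.08 in the same order. In both genes the IP6 over mock 6 value was the lowest of the triplet.

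OsIAA10 (chromosome 2, 35075316 to 35075988, minus strand) is listed under both hormone terms and had 4.30 (IP5/mock 5), 2.31 (IP5/mock 6) and 2.92 (IP6/mock 6) at its start. A second OsIAA10 region lay 3404 bp upstream, with 2.41, 2.27 and 2.68, and only 615 bp downstream of another gene, Os02g0817700 (OsI57). OsIAA24 had a region across its start (chromosome 7, 4356536 to 4356907, minus strand) with folds of 4.01, 4.54 and 2.91 in the order of lists above. For these genes the choice of mock moved the IP5 value in opposite directions, lower with mock 6 at OsIAA10 and higher at OsIAA24.

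OsIAA30 (chromosome 12, 25315287 to 25316050, minus strand) had 4.19 (IP5/mock 5), 3.42 (IP5/mock 6) and 2.48 (IP6/mock 6). OsIAA3 (Os01g0231000; chromosome 1, 7249726 to 7250659, plus strand) had 2.51, 3.57 and 3.30 in the same order. The gene table also gives OsIAA3 as a synonym of Os12g0601400, called OsIAA31 here, so the symbol alone does not name 1 gene. OsIAA31 (chromosome 12, 25330655 to 25331048, plus strand) had 5.66, 3.69 and 6.20, and 6.20 was the highest IP6 over mock 6 value of the 34 genes. This strongest value lay farthest from its gene within the family. The region is 3543 bp past the gene's end, while Os12g0601500 is 1585 bp and OsbZIP88 (Os12g0601800) 1725 bp from it, both with the region on their upstream side. Peaks outside that region touched OsIAA31 itself in each list. They had 4.43 (IP5/mock 5, 25325971 to 25326399), 3.76 (IP5/mock 6, 25325206 to 25325833) and 3.76 (IP6/mock 6, 25326853 to 25327541). These peaks did not overlap one another.

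All 4 ARF genes had a region touching the gene, and 3 of the 4 had a region wider than the median of 682 bp over the 38 regions of the 34 genes. OsARF1 had 2457 bp across its start (chromosome 11, 18939481 to 18941937, minus strand), with folds of 4.31 (IP5/mock 5), 4.24 (IP5/mock 6) and 4.85 (IP6/mock 6). The OsARF9 region spanned 2412 bp across its start (chromosome 4, 22005347 to 22007758, plus strand) and had 2.25, 3.68 and 3.40 in the same order. OsARF1 was the only ARF gene above a fold of 4 in all 3 lists, and its region held 2 peaks in each list. The peaks that gave its folds lay inside the gene and did not reach its start at 18941686. Those of IP5 over mock 5 (18940903 to 18941215) and IP5 over mock 6 (18939614 to 18940060) did not overlap each other. The IP6 over mock 6 peak (18939481 to 18941140) overlapped both. The OsARF9 region joined 1 peak of IP5 over mock 5, 2 of IP5 over mock 6 and 4 of IP6 over mock 6.

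OsARF2, listed under both hormone terms, had regions on either side of its start. The first (chromosome 1, 40695316 to 40695606, plus strand) ended 57 bp before the gene and had folds of 2.04 (IP5/mock 5), 4.41 (IP5/mock 6) and 4.89 (IP6/mock 6). The second (40695736 to 40697137) lay inside the gene and had 3.80, 5.72 and 3.71. The stronger region therefore differed between the library pairs, with the inner one ahead in both IP5 lists and the outer one ahead in IP6 over mock 6. OsARF19, also under both terms, had a region 481 bp wide inside the gene (chromosome 6, 29657905 to 29658385, plus strand), with a midpoint 1044 bp past the start and folds of 3.05, 5.32 and 2.48 in the order of lists above. Its IP6 over mock 6 value was among the lowest of the 34 genes, and its IP5 over mock 6 value among the highest.

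**Figure D1:**
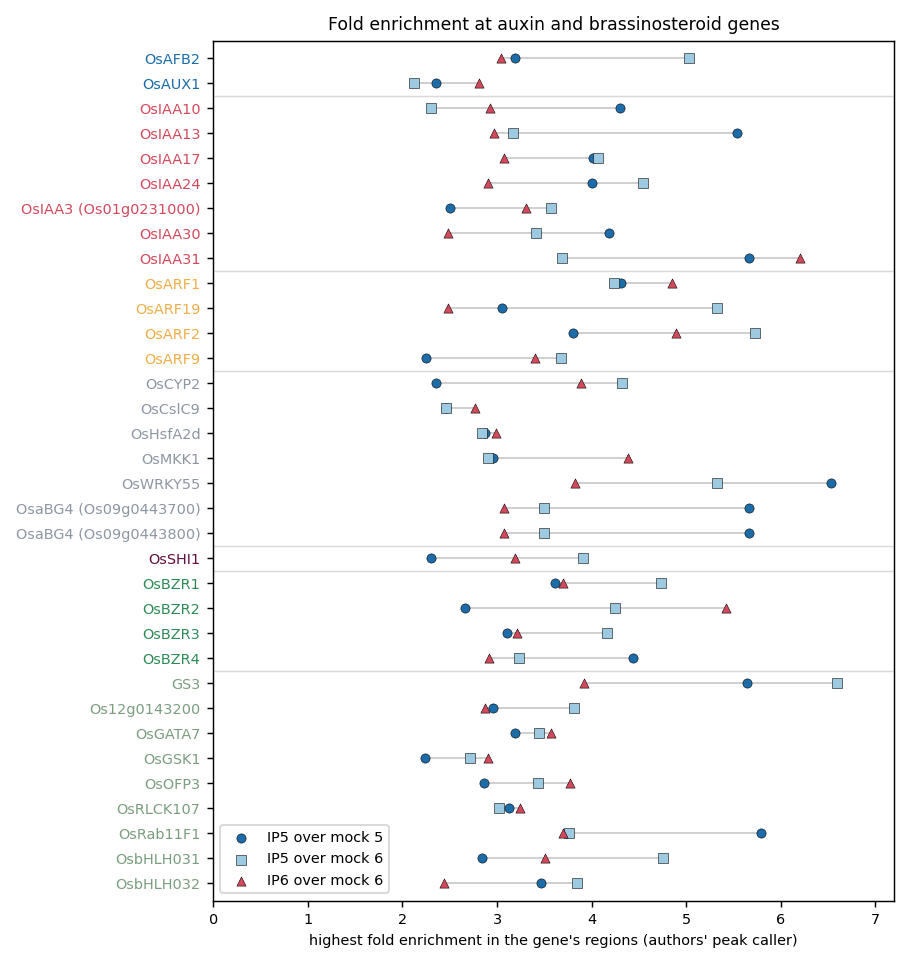
Highest fold enrichment (x axis, the authors' caller) at each of the 34 genes, grouped by family, with 1 marker for each of the 3 lists and a grey line over their range. Values run from 2.24 to 6.53 in IP5 over mock 5 and from 2.44 to 6.20 in IP6 over mock 6, and the order of the lists differs from gene to gene.

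The other 7 genes of the auxin term alone are of several kinds, and 3 of them had a region across the gene start. OsCYP2 encodes a cyclophilin known in rice for its part in Aux/IAA turnover and lateral root formation. Its region (chromosome 2, 1115705 to 1117297, plus strand) covered the whole gene of 887 bp, with folds of 2.36 (IP5/mock 5), 4.32 (IP5/mock 6) and 3.89 (IP6/mock 6). None of the peaks that gave these folds covered the whole gene by itself. OsMKK1, a mitogen-activated protein kinase kinase gene, had 2.96, 2.90 and 4.39 in the same order (chromosome 6, 2502338 to 2502894, minus strand). OsHsfA2d, a heat stress transcription factor gene, had nearly equal values of 2.88, 2.84 and 2.98 (chromosome 3, 3341941 to 3342631, plus strand).

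The remaining auxin-term genes had regions away from the gene body, and for 3 of these 4 genes the IP5 over mock 5 value was above 5. OsWRKY55, a WRKY transcription factor gene, had the highest IP5 over mock 5 value of the 34 genes, 6.53, with 5.32 (IP5/mock 6) and 3.82 (IP6/mock 6). Its region (chromosome 3, 11653737 to 11654360) lay 1592 bp downstream, across the start of Os03g0321800 and inside Os03g0321900. The neighbours Os09g0443700 and Os09g0443800, which the gene table both calls OsaBG4, shared 1 region (chromosome 9, 16515098 to 16515447) that lay 1180 bp upstream of Os09g0443700 and 1796 bp upstream of Os09g0443800. That region had 5.66, 3.50 and 3.08 in the order of lists above. The 2 genes are counted as 2 members but rest on 1 measurement. OsCslC9, a cellulose synthase-like gene, had a region 806 bp upstream (chromosome 3, 31935284 to 31935621, minus strand) with low values of 2.46, 2.46 and 2.77.

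In brassinosteroid signalling all 4 BZR transcription factor genes of the gene table were members, each with a region across the start, just before it or inside the gene. OsBZR1, the rice relative of the Arabidopsis regulator BZR1, had regions at both ends of the gene (minus strand). The region across its start (chromosome 7, 23484752 to 23485845) had folds of 2.57 (IP5/mock 5), 2.85 (IP5/mock 6) and 3.70 (IP6/mock 6). The region across its end (23483254 to 23484506) had 3.61, 4.73 and 2.77. As at OsARF2, a different region was the stronger one in the 2 immunoprecipitations.

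OsBZR2 had a region across its start (chromosome 1, 5671376 to 5672328, minus strand) with 2.66 (IP5/mock 5), 4.25 (IP5/mock 6) and 5.42 (IP6/mock 6). That IP6 value stood at rank 71 of the 2589 genes in its list, while the IP5 over mock 5 value stood at rank 1977. OsBZR3 had a region 71 bp upstream of its start (chromosome 6, 20940270 to 20941048, plus strand) with 3.11, 4.16 and 3.21 in the order of lists above. The OsBZR4 region lay inside the gene, with its midpoint 566 bp past the start (chromosome 2, 7550795 to 7551360, minus strand), and had 4.43, 3.23 and 2.91. OsBZR2 and OsBZR4 thus had opposite orders in the 2 calls that share no library.

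Among genes for kinases and a G-protein subunit, the regions ranged from one at the start to one far past the gene's end. GS3, a gene for a G-protein gamma subunit known for its effect on grain length in rice, had a region across its start (chromosome 3, 16734804 to 16735267, minus strand). Its folds were 5.64 (IP5/mock 5), 6.60 (IP5/mock 6) and 3.92 (IP6/mock 6), and 6.60 was the highest IP5 over mock 6 value of the 34. OsRLCK107, a receptor-like cytoplasmic kinase gene, had a region inside the gene near its start (chromosome 3, 9273024 to 9273309, minus strand) with even values of 3.13, 3.02 and 3.24. OsGSK1, a GSK3-like kinase gene, had the most distant region of the 34 genes, 3860 bp past its end (chromosome 1, 5770089 to 5770432, minus strand), with low folds of 2.24, 2.71 and 2.90. That region lay inside Os01g0205500, and 6 genes of the table, Os01g0205500 included, were nearer to it than OsGSK1.

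The other transcription regulators of the brassinosteroid term had regions at mixed positions. OsbHLH032, a basic helix-loop-helix gene, had a region inside the gene (chromosome 9, 18208629 to 18209776, plus strand) with 3.46 (IP5/mock 5), 3.85 (IP5/mock 6) and 2.44 (IP6/mock 6), the lowest IP6 over mock 6 value of the 34. OsbHLH031 had a weak region across its start (chromosome 8, 24222062 to 24222592, plus strand) with 2.03, 3.18 and 2.15. A second OsbHLH031 region, 2897 bp downstream (24231563 to 24233048), had 2.84, 4.76 and 3.50 but crossed the start of OsDof24 (Os08g0490100). Among the 38 regions the start region of OsbHLH031 came nearest in IP5 over mock 5 to the smallest fold of any region in the gene table, 2.00.

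OsGATA7, a GATA zinc-finger gene, had a region inside the gene (chromosome 10, 21943388 to 21944311, plus strand) with 3.19 (IP5/mock 5), 3.44 (IP5/mock 6) and 3.57 (IP6/mock 6). Its IP5 over mock 5 and IP6 over mock 6 peaks did not overlap each other, in the gene's only region. In the other 33 genes (97.1%) they overlapped by at least 1 bp in some region, against 93.1% of the 2589 genes. OsbHLH031 is one of the 33 only through its downstream region, because its IP5 over mock 5 and IP6 over mock 6 peaks did not overlap in the region across its start. OsOFP3, an OVATE family gene, had a region 1312 bp downstream (chromosome 1, 30545367 to 30545790, plus strand) with 2.86, 3.43 and 3.77.

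The last genes of the brassinosteroid term had regions that lay nearer to other genes. OsRab11F1, a Rab small GTPase gene, had folds of 5.79 (IP5/mock 5), 3.77 (IP5/mock 6) and 3.70 (IP6/mock 6). Its region (chromosome 6, 30340592 to 30341251) was 3585 bp upstream and inside Os06g0714800. Os12g0143200, which has no symbol in the gene table, had 2.96, 3.82 and 2.87 in a region 2088 bp downstream (chromosome 12, 2126378 to 2126709) that crossed the start of Os12g0143300.

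OsSHI1, a SHI family transcription factor gene, was the last of the 4 genes under both terms, beside OsIAA10, OsARF2 and OsARF19. Like OsBZR1 it had a region across each end of the gene (minus strand). The start region (chromosome 9, 20839631 to 20840344) had 2.17 (IP5/mock 5), 2.90 (IP5/mock 6) and 2.36 (IP6/mock 6). The end region (20838001 to 20839249) had 2.31, 3.91 and 3.19 and was the stronger in all 3 lists. Of the 34 genes 5 had 2 regions (14.7%, against 9.81% of the 2589 genes with 2 or more), and 3 of those 5 stand under both terms.

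**Figure D2:**
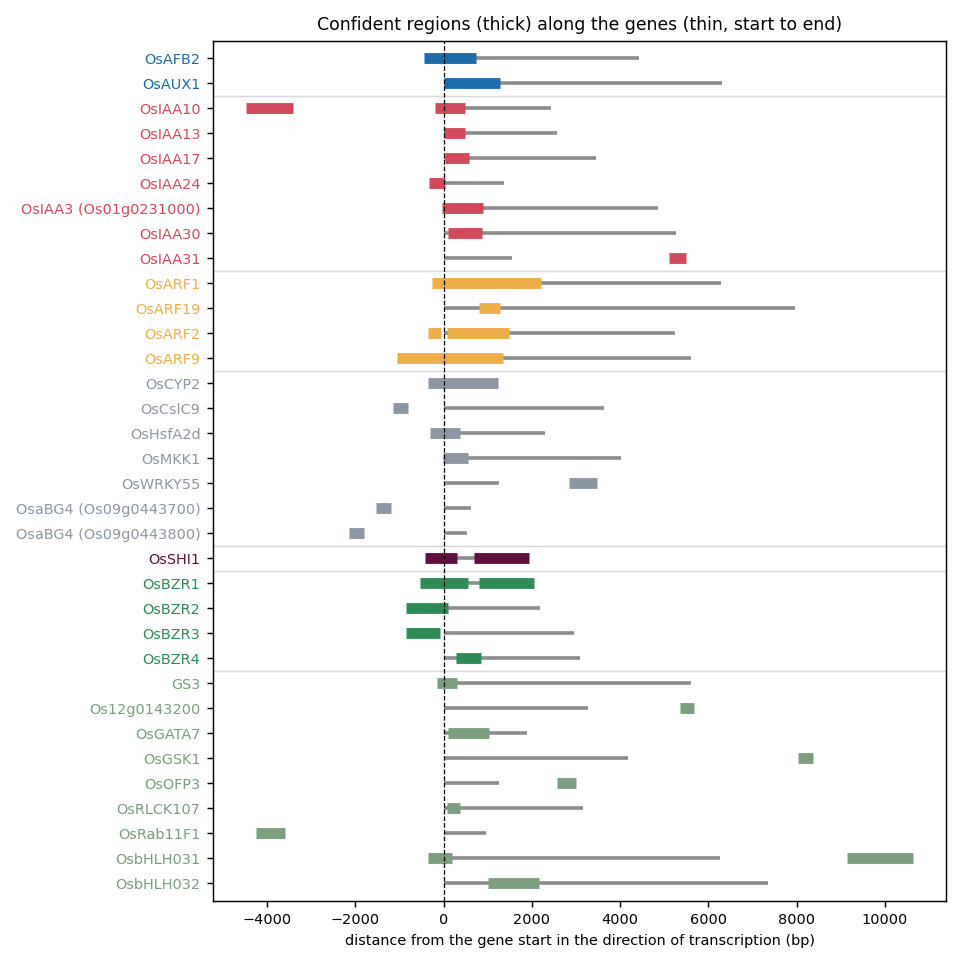
Confident regions (thick bars) along the 34 genes (thin grey lines from start to end), as distance in bp from the gene start in the direction of transcription, coloured by family as in the gene names. Midpoints within 500 bp of the start number 6 of 8 for Aux/IAA, 2 of 5 for ARF and 3 of 5 for BZR genes. The share over all 2862 pairs of a gene and a region is 32.6%. Regions of OsIAA31, OsWRKY55, OsGSK1 and OsRab11F1 are among those that lie clear of the gene.

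Over all 34 genes, 14 had a region across the gene start (41.2%), where 26.7% of the 2589 genes had one. In 13 of these 14 (92.9%) the peaks of the 2 calls without a shared library overlapped in that region, with OsbHLH031 the exception. The share was 90.7% over the 690 genes with such a region. Such an overlap need not lie at the start. Only at GS3 did the strongest peaks of both calls in that region cover the start base. At OsAFB2, OsIAA3 (Os01g0231000), OsARF1, OsARF9 and OsCYP2 neither did, and no share over all genes was computed for this. A region across the start was found at 10 of 21 genes of the auxin term (47.6%). For the brassinosteroid term it was 6 of 17 (35.3%), with genes of both terms counted in each. Of the 39 pairs of a gene and a region, 19 had the region's midpoint within 500 bp of the start (48.7%, against 32.6% of all 2862 pairs). Pairs without contact between region and gene numbered 13, and for 8 of them another gene in the table was nearer (61.5%, against 79.0% of the 1569 such pairs of the table). At 6 genes a nearer gene stood at every region (17.6%, against 41.6% of the 2589), namely OsIAA31, OsWRKY55, Os09g0443800, Os12g0143200, OsGSK1 and OsRab11F1. These shares were not tested, because the genes were chosen from the same calls as the set they stand beside. The 34 were also chosen by annotation, while the 2589 include any gene without a term. Their regions were wider as well, with a median of 682 bp against 553 bp. The part of annotation and width in these shares was not tested.

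In strength the 34 genes were close to the rest. The median fold was 3.19 against 3.34 over the 2589 genes in IP5 over mock 5, 3.73 against 3.90 in IP5 over mock 6, and 3.20 against 3.12 in IP6 over mock 6. A fold of at least 3 in both calls that share no library was reached by 14 genes (41.2%), near the 37.8% of the 2589. OsARF1 and OsIAA31 alone also reached 4 in both calls. Spearman's rho between the 2 calls was 0.133 over the 34 genes and 0.156 over the 2589, a description over genes that share their libraries. The largest q of a strongest peak at any of the 38 regions was 9.43e-04, in IP6 over mock 6 at OsbHLH031.

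**Figure D3:**
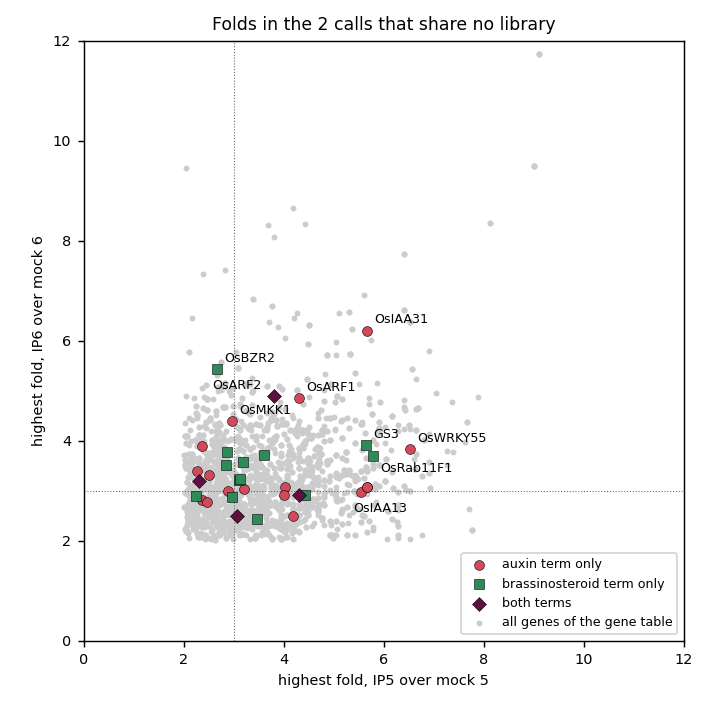
Highest fold on the x axis for IP5 over mock 5 and on the y axis for IP6 over mock 6, at the 34 genes, coloured by hormone term, and at all 2589 genes in grey, with dotted lines at a fold of 3. The 34 genes lie within the grey cloud, with OsIAA31 highest on the y axis at 6.20 and OsWRKY55 farthest right at 6.53.

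**Figure D4:**
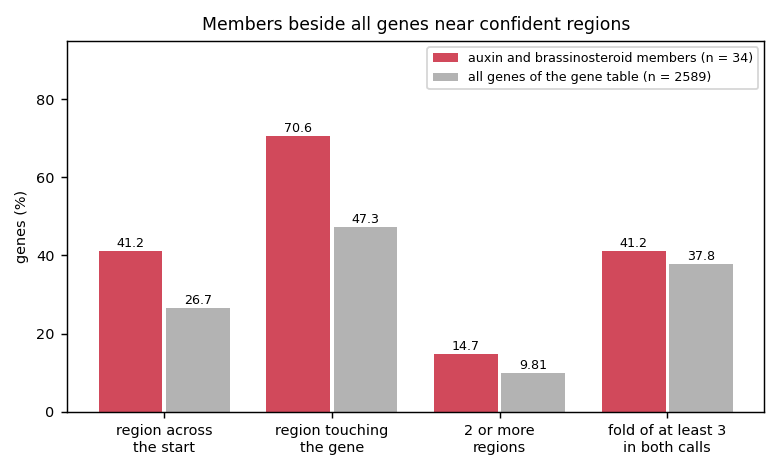
Percentage of the 34 genes (red) and of all 2589 genes (grey) with a region that crosses the start, one that touches the gene, 2 or more regions, and a fold of at least 3 in both calls that share no library. The bars differ most for contact with the gene, 70.6% and 47.3%, and least for the fold, 41.2% and 37.8%.

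Some peaks near these genes lay outside the confident regions. Within 4000 bp of the gene, IP6 over mock 6 had a stronger peak outside the regions than inside them at 8 of the 34 genes (23.5%, against 20.2% of the 2589), and IP5 over mock 5 likewise at 8 (23.5%, against 27.2%). The clearest was at OsbHLH031, where an IP6 over mock 6 peak inside the gene (chromosome 8, 24224008 to 24224190) had 6.03, against 3.50 in its regions. An IP5 over mock 6 peak of 4.67 (24223771 to 24224204) covered the same place, against 4.76 in the gene's regions. The highest IP5 over mock 5 peak outside the regions there was 1.94, elsewhere in the gene (24225674 to 24226273). At OsIAA30 both calls had a stronger peak elsewhere, IP5 over mock 5 with 4.93 (25313054 to 25313318) and IP6 over mock 6 with 2.96 (25318020 to 25318286), but at different places. At OsGSK1 an IP5 over mock 5 peak of 3.20 (5773803 to 5774048) lay far closer to the gene than its region.

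A wider list of pathway genes was matched by symbol to the gene table, name by name. It held 103 auxin names, of which 25 matched 18 genes, and 36 brassinosteroid names, of which 7 matched 7 genes. Of those 25 genes, 18 are among the 34 and 5 were left out with the inflorescence and flower genes. For auxin the names found were 2 of 5 for receptors (1 gene), 10 of 31 for Aux/IAA repressors (8 genes), 12 of 25 for ARFs (8 genes), 1 of 14 for transport, 0 of 15 for synthesis and 0 of 13 for conjugation. For brassinosteroid they were 1 of 5 for receptors and co-receptors, 2 of 11 for kinases and phosphatases, 4 of 13 for transcription factors (the BZR genes), 0 of 2 for a ubiquitin ligase and a G protein, and 0 of 5 for synthesis. A gene known to the table only by another symbol would be missed, and no share over all rice genes was at hand, so a count of 0 does not show that a step had no region.

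The remaining 2 of the 25 genes stand under neither hormone term in the deposited lists. OsIAA21 (Os06g0335500) had a region inside the gene (chromosome 6, 13345409 to 13346180) with 3.57 (IP5/mock 5), 3.19 (IP5/mock 6) and 2.97 (IP6/mock 6). OsGSK2 (Os01g0252100), a GSK3-like kinase gene, had a region across its start (chromosome 1, 8329456 to 8330885) with 2.18, 4.18 and 3.46 and another 391 bp downstream with 3.20, 2.86 and 2.60. Both regions lay at or near the gene, while that of OsGSK1 did not. The 10 genes left out had folds of 2.12 to 5.17 for IP5 over mock 5 and of 2.43 to 8.07 for IP6 over mock 6, and 2 of the 10 had a region across the start. They include OsBRI1, the brassinosteroid receptor gene, with its highest folds at 2.66 (IP5/mock 5), 5.03 (IP5/mock 6) and 3.44 (IP6/mock 6).

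In the authors' deposited table of gene ontology terms, auxin mediated signaling pathway was at rank 5 by false discovery rate (0.00246, 27 of 167 genes) and brassinosteroid mediated signaling at rank 9 (0.00462, 23 of 141). Among the 105 motifs of the authors' deposited table for the regions as a whole, 2 were named for ARF proteins, ARF14 (E-value 1.1e-07, 555 sites) and ARF7 (E-value 3.3e-06, 1308 sites). Both E-values in the authors' deposited table are for central placement in the regions and came at ranks 82 and 84. By the same search of names, 0 of the 105 were named for BZR, BES or BEH proteins, the family of OsBZR1, and also 0 for MADS, the family of OsMADS2 itself, and 0 each for BIM, WRKY, TCP and bHLH or PIF. A 0 says only that no motif bore such a name. These motifs describe all regions and were not assigned to single genes.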

How the data were processed

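Libraries were 2 OsMADS2 immunoprecipitations and 2 IgG mocks, grouped by title. Bowtie2 and MACS2 stand beside SAMtools, fastp and deepTools in the submitters' processing notes, with no versions. The authors deposited read counts per library and, per the file headers, peak lists of 1 library pair each, with a fold ratio over mock and −log10 values of p and q. The authors also deposited the merged regions with their nearby genes, the counts of genes per ontology term and of motif sites, and E-values from MEME-ChIP 5.4.1 with JASPAR 2022. Precision is limited by the unique reads given above, and no interval could be made for a fold.

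Here, the term lists were joined to the gene table, and each region received the highest fold among peaks overlapping it by at least 1 bp, a step tested on simulated data. Python 3.11.15, numpy 2.4.6, pandas 2.3.3 and matplotlib 3.10.9 were used. All members were named, by rule. Members and lists were chosen with earlier results of these data known. Nothing was tested, since the members come from the calls measured. Alternatives varied the fold minimum, the q limit, the overlap, the window at the start, the libraries and the genes left out. No genome or promoter sequence was used here.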

Additional observations from a re-analysis of the deposited data

How the results depend on the processing

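The count of 14 genes with a region across the start was also 14 with a q of at most 0.01 in each list and with only the region nearest the start, and 16 with the genes left out put back. Counting region midpoints up to 500 bp downstream gave 20 genes with 1000 bp upstream and 22 with 2000 bp upstream, where the window itself is wider. The count of 14 genes with a fold of at least 3 in both calls was 25 at a fold of at least 2.5 and 2 at 4. With 1 library left out it was 21 to 22, since most such counts then ask for the fold in 1 call only. Without IP5 it was 22, without IP6 or mock 6 it was 21, and with mock 6 as the control for IP5, which is also the count without mock 5, it was 21. For the other settings of this count and of the start count, no share over the 2589 genes was computed. Those counts therefore show only how far a setting moves them. A q of at most 0.01 or at least 50% of the peak in the region left the fold count at 14. The q limit could change neither this count nor that of starts, because no strongest peak at these regions had a q above 0.01. The regions were merged from these same peaks, so the 50% rule was not a strict check either. Counting each region once moved the median fold to 3.08 for IP5 over mock 5, against 3.19, and to 3.13 for IP6 over mock 6, against 3.20. Pathway names found fell to 17, against 32, when synonyms were not used, and ARF and Aux/IAA numbers differ between naming systems. No paired analysis was possible because no result comes from a test that could take a block; IP5 over mock 5 and IP6 over mock 6 already set libraries of the same number against each other.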

Other observations

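The 34 genes overlapped other deposited ontology terms. They were chosen by annotation, while the 2589 genes of the table include any without a term, so the shares below are descriptions and were not tested. Of the 11 genes listed under response to gravity, 6 were members (54.5% of the term and 17.6% of the 34, against 0.425% of the 2589), namely OsARF9, OsAUX1, OsCYP2, OsHsfA2d, OsSHI1 and OsWRKY55. Lateral root formation had 3 of its 6 genes among them (50.0% of the term and 8.82% of the 34, against 0.232% of the 2589), which were OsARF19, OsAUX1 and OsIAA13. Response to salt stress had 12 of its 195 genes among them (6.15% of the term and 35.3% of the 34, against 7.53% of the 2589), including all 4 BZR genes. Those 4 also stood under regulation of growth, as 4 of its 8 genes (50.0% of the term and 11.8% of the 34, against 0.309% of the 2589).

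Folds repeated exactly between places. In IP5 over mock 5, OsIAA31 and the OsaBG4 pair had the same 5.66, a value found at 49 peaks of that list. In IP6 over mock 6, OsARF19 and OsIAA30 shared 2.48, found at 13 peaks. The 24169 IP5 over mock 5 peaks held 4983 distinct folds, and 88.5% of the peaks shared their fold with another peak. The share was 79.7% of the 10602 peaks in IP6 over mock 6.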
